A study of Homo sapiens with 6 samples.

Results

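The mRNA levels of 10 genes of the integrated stress response were followed in HCT116, a cell line from a human colorectal carcinoma, after exposure to oxaliplatin. The genes were ATF4, ATF3, ATF5, DDIT3, TRIB3, CHAC1, PPP1R15A, ASNS, PHGDH and PSAT1. They were taken by symbol from a table of 27942 genes, each had 1 row in it, and all 10 passed the filter on low counts that 13727 genes passed. Untreated cells (NT, 3 libraries) were compared with cells given oxaliplatin at 0.5 µM for 24 h (OXA, 3 libraries), which the labels give as the IC50. Both groups were the same p53 wild-type, CTNNB1-mutated line grown in RPMI with serum, so a single line stands for the response. The labels number the 3 libraries of a group as replicates without saying whether they came from separate cultures, so p-values measure the spread between these libraries, which may be technical.

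In the integrated stress response, kinases that sense misfolded protein, amino acid shortage, viral RNA or haem deficit phosphorylate the translation factor eIF2α. General translation then slows, while the mRNA of the transcription factor ATF4 is translated better because of short upstream reading frames in its leader. ATF4 protein activates genes for amino acid supply and, with lasting stress, genes linked to cell death such as DDIT3, which encodes CHOP. Much of the control thus lies in translation, which RNA sequencing does not measure.

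Library totals lay between 32979521 and 40967880 counts. CDKN1A, the p53 target that encodes p21, was used as a check of the treatment and rose from 5143 ± 907 to 39110 ± 2895 normalized counts (SD, n = 3). Normalized counts are raw counts scaled by 1 factor per library (TMM). The 6 epithelial markers EPCAM, KRT8, KRT18, CDH1, CDX2 and VIL1 were all detected, at a summed 71290 to 113700 normalized counts per library. None of them was called by edgeR or DESeq2 (2 had an unadjusted p under 0.05), and with the block KRT8 and KRT18 were called higher and CDH1 lower. Of 6 markers of other cells, PTPRC and CD3E had at most 2 raw counts in any library, and the 6 summed to 136 to 318 normalized counts, most of them from COL1A1. NT library 1 stood apart from the other NT libraries. The chi-square per gene was 83.6 and 76.1 for its pairs with NT libraries 2 and 3, against 21.3 for the pair of those.

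At an adjusted p under 0.05 by edgeR's quasi-likelihood test, 1 of the 10 genes was higher in OXA (ATF3) and 2 were lower (ATF4 and ASNS). Over all genes tested, 2.78% were higher and 2.29% lower by the same rule. ATF3 and ASNS also changed by more than 1.5-fold, as did 1.97% of all genes upward and 1.44% downward. NT and OXA libraries of the same number shared part of their deviations, so a second fit included this number as a block. With the block, PPP1R15A was also higher and PHGDH also lower, which gave 2 genes up and 3 down, against 12.1% and 10.9% of all genes. DDIT3, TRIB3, CHAC1, ATF5 and PSAT1 passed the threshold in neither fit. The median log2 fold change of the 10 genes was -0.17, against 0.023 over all genes tested. In bulk RNA, fewer cells that express a gene and less RNA per cell cannot be told apart.

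**Figure D1:**
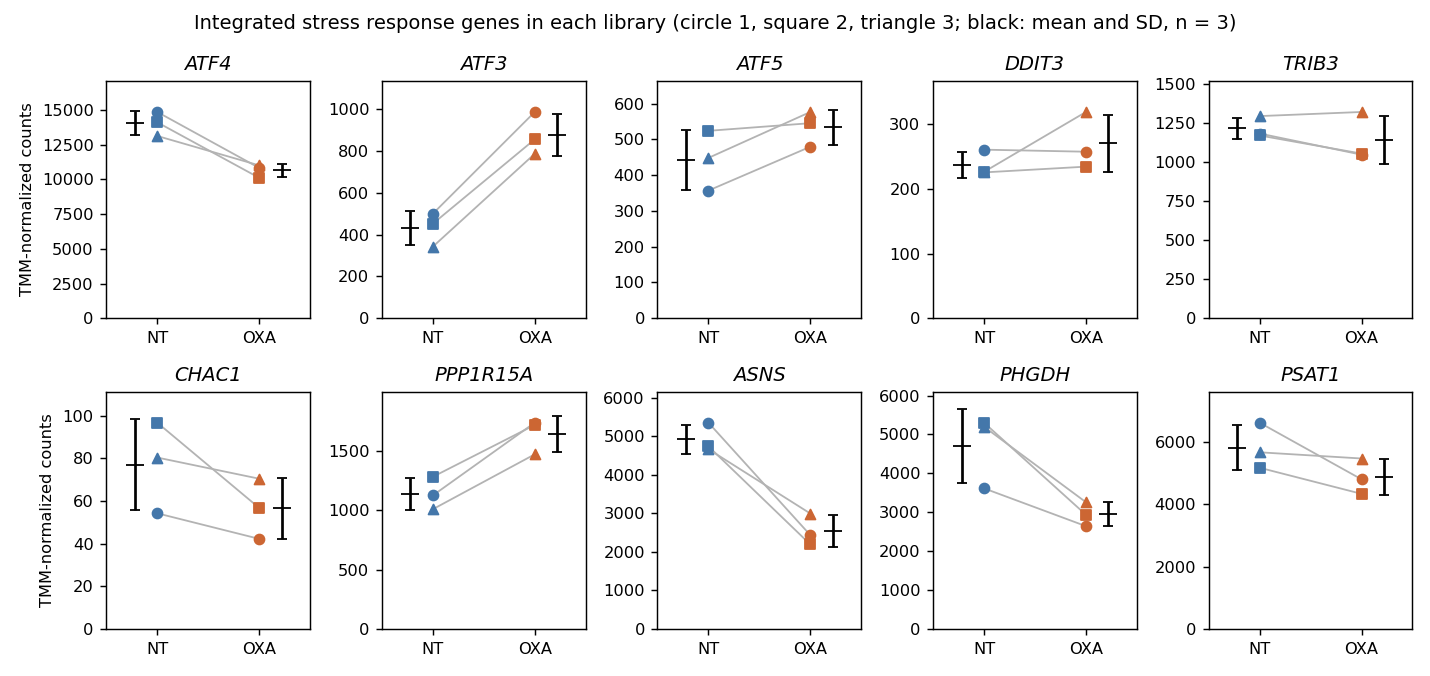
TMM-normalized counts (vertical axes, starting at 0) of the 10 genes in each NT and OXA library, with grey lines joining libraries of the same replicate number and black bars for mean and SD (n = 3). The groups do not overlap in ATF4, ATF3, PPP1R15A, ASNS and PHGDH.

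**Figure D2:**
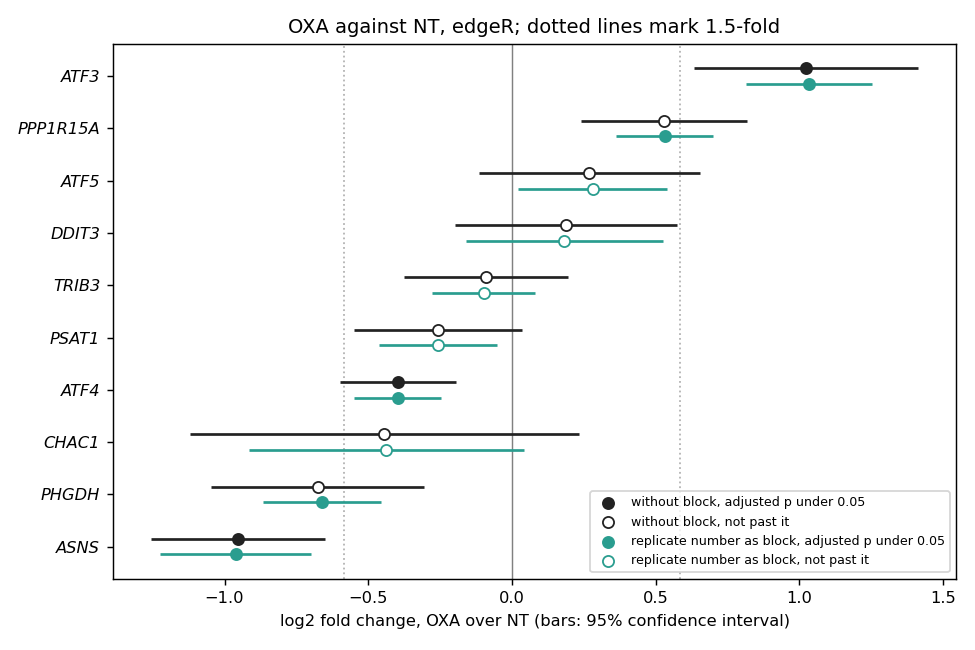
Log2 fold change of OXA over NT for each of the 10 genes with its 95% confidence interval (horizontal axis, dotted lines at 1.5-fold), from the fits without and with a block for the replicate number. Filled points mark an adjusted p under 0.05: ATF3, ATF4 and ASNS in both fits, and PPP1R15A and PHGDH with the block alone.

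The short sequences printed here show where the proximal promoters of these genes hold the letters of a C/EBP-ATF response element (CARE), which ATF4 binds with a C/EBP partner, or of a cAMP response element (CRE), a site of the wider ATF and CREB family. Promoter windows of 300 bases, 250 of them before the annotated start, were taken from RefSeq on GRCh38.p14 for all 10 genes, 18 windows in all because several genes have more than 1 start. The CARE letters TGATGNAA, searched on both strands, occurred in 3 of the 10 genes (ATF3, ASNS and CHAC1). Over all genes with such windows 4.46% held them, and 3.62% of all windows. The CRE letters TGACGTCA, which read the same on both strands, occurred in 1 gene (PPP1R15A), against 2.25% of all genes and 1.85% of windows. No window of the 10 genes held both. Each run of 30 bases is read 5′ to 3′ along the strand of its gene, lies before the RefSeq start of transcription, and has the matching letters in capitals:
ASNS, chr7:97872458-97872487, minus strand: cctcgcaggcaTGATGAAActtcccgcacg
CHAC1, chr15:40953251-40953280, plus strand, with the CARE on the opposite strand: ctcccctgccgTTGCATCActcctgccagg
ATF3, chr1:212565205-212565234, plus strand: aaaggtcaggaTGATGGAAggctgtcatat
PPP1R15A, chr19:48872352-48872381, plus strand: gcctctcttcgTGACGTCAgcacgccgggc
The CARE letters began 68 bases before the start in ASNS, 209 in CHAC1 and 191 at the upstream start of ATF3, and the CRE letters began 58 bases before the start in PPP1R15A. In GENCODE the ASNS, CHAC1 and PPP1R15A runs lie within the first exon of longer transcripts, since GENCODE starts these genes further upstream, and the ATF3 run lies before its first exon. A match describes the letters and not binding. The genes that hold the CARE letters moved differently: ASNS was lower in OXA, ATF3 higher, and CHAC1 not called.

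ATF4 (ENSG00000128272, chromosome 22 of GRCh38 from 39519695 to 39522683, plus strand) encodes the central transcription factor of the response. Its NT libraries 1 to 3 had 14858, 14114 and 13130 normalized counts, and its OXA libraries 10828, 10115 and 11010.1. Every OXA library was below every NT library, and both groups were tight, with coefficients of variation of 6.18% and 4.44%. The mRNA was 1.32-fold lower in OXA (a log2 difference of -0.40 ± 0.087 SE, edgeR adjusted p = 0.0443; 0.0110 with the block). In the same-numbered pairs it fell by 0.46, 0.48 and 0.25 on the log2 scale. The call was close to the threshold. It was kept without NT library 1 (edgeR adjusted p = 0.0412), whereas without any other library the adjusted p rose to between 0.0718 and 0.187. By the annotation, ATF4 has 4 pseudogenes elsewhere in the genome (ATF4P1 to ATF4P4), none of which is among the genes of the table, so reads from such copies could have been counted here.

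ATF3 (ENSG00000162772, chromosome 1 from 212565334 to 212620777, plus strand) encodes a bZIP factor that is induced by ATF4 and also by DNA damage, and that mostly represses its targets. It had 499.9, 452 and 342 normalized counts in NT and 987, 856 and 787 in OXA. The lowest OXA library lay well above the highest NT library. ATF3 was 2.03-fold higher in OXA (a log2 difference of 1.02 ± 0.17 SE, edgeR adjusted p = 0.0185), and higher in 3 of 3 same-numbered pairs. The block left the estimate at 1.03 and lowered the adjusted p to 0.00282. When single libraries were left out, the fit without NT library 1 kept the call (edgeR adjusted p = 0.00331), and the others gave values from 0.0560 to 0.0992. In the authors' normalized values the groups did not overlap either, at 577, 484 and 353 normalized counts in NT and 970.3, 750.4 and 702 in OXA. The authors' factor on the raw count of ATF3 ran from 0.795 to 1.18 across the 6 libraries, where that of ATF4 ran from 0.891 to 1.09, and with these values ATF3 missed the threshold (limma adjusted p = 0.0904, log2 fold change 0.79).

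ATF5, a close relative of ATF4 whose translation is controlled in a like manner, had 357, 524 and 448 normalized counts in NT and 479, 545 and 576 in OXA. The groups overlapped, although ATF5 was higher in OXA in each same-numbered pair. The log2 fold change was 0.27 with a 95% interval from -0.12 to 0.65 (edgeR adjusted p = 0.401; 0.107 with the block). ATF5 shares 565 bases of exon with NUP62 on the opposite strand, a gene with 3213 to 5144 raw counts. The kit marks strand, but the strand setting of the counting is not given in the sources used here.

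DDIT3 encodes CHOP, the bZIP factor tied to cell death under lasting stress. It had 261, 226 and 226 normalized counts in NT and 258, 234 and 319 in OXA. Only OXA library 3 lay above the NT range, and OXA libraries 1 and 2 lay within it. The log2 fold change was 0.19, with a 95% interval from -0.20 to 0.57 (edgeR adjusted p = 0.568; 0.376 with the block). DDIT3 shares 355 bases of exon with the opposite-strand gene MARS1, which had 6492 to 10549 raw counts against 215 to 358 for DDIT3, so a small share of misplaced reads would weigh on its level.

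PPP1R15A encodes GADD34, the inducible phosphatase subunit that removes the phosphate from eIF2α and so closes the response. It had 1124, 1281 and 1008 normalized counts in NT and 1738, 1718 and 1471 in OXA. Every OXA library was above every NT library, and PPP1R15A was higher in OXA in 3 of 3 same-numbered pairs. The level in OXA was 1.44 times that in NT (a log2 difference of 0.53 ± 0.12 SE), which just missed the threshold (edgeR adjusted p = 0.0544). With the block the estimate was the same and PPP1R15A was called higher (edgeR adjusted p = 0.00711). Without NT library 1 it was also called (edgeR adjusted p = 0.0425).

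TRIB3 encodes a pseudokinase that is induced by ATF4 and CHOP and dampens their action. Its NT libraries had 1182, 1169 and 1293 normalized counts, and its OXA libraries 1046, 1053 and 1320. OXA libraries 1 and 2 lay below all NT libraries and OXA library 3 above them. The log2 fold change was -0.091 with a 95% interval from -0.38 to 0.19 (edgeR adjusted p = 0.723; 0.363 with the block). Among the 10 genes this was the smallest estimate in size.

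CHAC1 encodes an enzyme that breaks down glutathione and lies downstream of ATF4, ATF3 and CHOP. It was the least counted of the 10, at raw counts of 53, 93 and 88 for NT and 39, 52 and 79 for OXA. At these depths counting error alone is wide, since 39 counts have an exact Poisson 95% interval from 27.7 to 53.3 and 53 counts one from 39.7 to 69.3. Per library the normalized counts were 54.2, 96.6 and 80.3 in NT and 42.2, 56.7 and 70.4 in OXA, so the groups overlapped although each OXA library was below its same-numbered NT library. The log2 fold change was -0.44 with a 95% interval from -1.12 to 0.23 (edgeR adjusted p = 0.433; 0.157 with the block). A 1.5-fold decrease of CHAC1 lay within this interval and a 1.5-fold increase outside it.

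ASNS (ENSG00000070669, chromosome 7 from 97851677 to 97872542, minus strand), which makes asparagine from aspartate and glutamine, showed the largest decrease of the 10 genes. It had 5348, 4735 and 4662 normalized counts in NT and 2431, 2189 and 2992 in OXA. All OXA libraries lay far below all NT libraries. The NT level was 1.94 times the OXA level (a log2 difference of -0.95 ± 0.13 SE, edgeR adjusted p = 0.00983; 0.00498 with the block). ASNS was lower in OXA in all 3 same-numbered pairs, by a log2 ratio of -1.14, -1.11 and -0.64. The call held in 5 of the 6 fits that left out 1 library, and was missed without OXA library 1 (edgeR adjusted p = 0.0718). By the annotation, ASNS shares 2415 bases of exon with a lncRNA on the same strand and has 4 pseudogenes, and none of these is among the genes of the table, so how such reads were assigned is uncertain.

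PHGDH and PSAT1 catalyse the first and second steps of serine synthesis from a glycolytic intermediate. PHGDH had 3615, 5303 and 5199.99 normalized counts in NT and 2642, 2935 and 3258 in OXA. NT library 1 lay nearer to the OXA libraries than to the other NT libraries, but the groups did not overlap. The log2 fold change of PHGDH was -0.68 (standard error 0.16), which missed the threshold (edgeR adjusted p = 0.0561), and with the block it was -0.66 and called lower (edgeR adjusted p = 0.00673). Without NT library 1 the log2 fold change was -0.83 (edgeR adjusted p = 0.00209). PSAT1 had 6621, 5174 and 5669.97 normalized counts in NT and 4803, 4336 and 5471 in OXA, and its groups overlapped. PSAT1 had a log2 fold change of -0.26 with a 95% interval from -0.55 to 0.035 (edgeR adjusted p = 0.288; 0.0768 with the block), while each OXA library was below its same-numbered NT library. The annotation lists 4 pseudogenes of PSAT1, none of them among the genes of the table.

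In all, the groups did not overlap in 5 of the 10 genes (ATF4, ATF3, PPP1R15A, ASNS and PHGDH), where 28.9% of all genes tested did not overlap. The same 5 genes had an unadjusted p under 0.05, as did 21.7% of all genes tested. ATF3 and PPP1R15A were the genes of this set that lay higher, and ATF4, ASNS and PHGDH lower.

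The 10 genes also differed within the groups. OXA library 3 was the highest OXA library for 8 of them, all but ATF3 and PPP1R15A. The share of all genes tested that were highest in OXA library 3 is not given here, so this may not be particular to the 10. In NT library 1, CHAC1, PHGDH and ATF5 lay below the mean of their group, at log2 deviations of -0.45, -0.36 and -0.29, and ATF3, PSAT1, DDIT3 and ASNS lay above it, at 0.23, 0.19, 0.14 and 0.13. This library differed by base composition. Genes above the 80th percentile of exon GC had a median log2 deviation from the NT mean of -0.55 in NT library 1. The median was 0.35 and 0.20 in NT libraries 2 and 3. From the OXA mean, the median deviations of these genes were -0.19, 0.22 and -0.024 in OXA libraries 1, 2 and 3. ATF5, TRIB3, CHAC1 and PPP1R15A lie above the 80th percentile of exon GC, at 91.3, 90.9, 87.8 and 80.5, while ASNS and PSAT1 lie at 26.4 and 28.4.

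With a trend over GC removed from each library, a step chosen after the data had been seen, ATF4 had a log2 fold change of -0.46, ATF3 of 1.00, ASNS of -0.90 and PHGDH of -0.76. These 4 were called (edgeR adjusted p = 0.0123 for ATF4, 0.00296 for ATF3, 0.000753 for ASNS and 0.000905 for PHGDH). Of the 13675 genes tested with this step, 1575 were called higher and 1494 lower, many more than in the main fit. PPP1R15A fell short in that fit (log2 fold change 0.36, edgeR adjusted p = 0.167) and was called with the block added (0.00177). CHAC1 and PSAT1 were called lower with the GC step and the block together (log2 fold change -0.61 and -0.20, edgeR adjusted p = 0.0388 and 0.0153). With both, 3259 of the 13675 genes were called higher and 3001 lower, so a call there is common. ATF5, DDIT3 and TRIB3 were called in none of these fits. The part of GC in the calls without this step was not tested beyond these fits.

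Ratios of raw counts within a library do not depend on how libraries are scaled. Per 1000 ATF4 counts there were 33.64, 32.03 and 26.07 ATF3 counts in NT and 91.1, 84.6 and 71.5 in OXA. Per 1000 ATF4 counts there were 75.7, 90.8 and 76.8 PPP1R15A counts in NT and 160.5, 169.9 and 133.6 in OXA. Both ratios were higher in every OXA library than in any NT library. This follows from the raw counts, in which ATF3 and PPP1R15A were higher and ATF4 lower in every OXA library, and is no separate evidence. For ASNS the ratio went the other way, with 360.0, 335.5 and 355.0 ASNS counts per 1000 ATF4 counts in NT and 224.5, 216.4 and 271.7 in OXA, again without overlap. DDIT3 counts per 1000 ATF4 counts were 17.5, 16.0 and 17.2 in NT and 23.8, 23.2 and 29.0 in OXA, which did not overlap although DDIT3 itself did, because ATF4 is the denominator. The ratio of PHGDH to PSAT1 overlapped, with 546, 1025 and 917 PHGDH counts per 1000 PSAT1 counts in NT and 550.1, 677 and 596 in OXA. The overlap rests on NT library 1. A ratio does not remove differences by GC, and PHGDH and PSAT1 lie at percentiles of 71.2 and 28.4. The part of GC in this ratio was not tested.

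**Figure D3:**
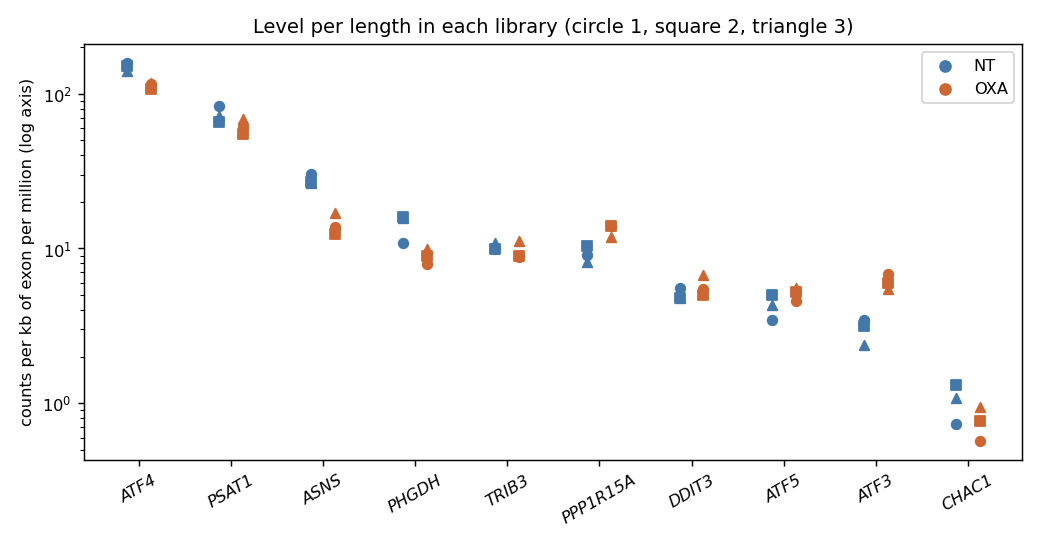
Level of each of the 10 genes per kilobase of annotated exon and per 1000000 scaled counts (log axis), with 1 point for each NT and OXA library. ATF4 stands highest and CHAC1 lowest in both groups, and ATF3 lies above DDIT3 and ATF5 by mean in OXA but below them in NT.

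Levels between genes were compared per kilobase of annotated exon and per 1000000 scaled counts. In NT, ATF4 had the highest level, at 149.3 ± 9.22 (SD, n = 3), followed by PSAT1 at 73.4 ± 9.26, ASNS at 27.9 ± 2.14 and PHGDH at 14.2 ± 2.86. TRIB3 (10.3 ± 0.576) and PPP1R15A (9.21 ± 1.11) came next and overlapped over the NT libraries. DDIT3 (5.05 ± 0.427) overlapped with ATF5 (4.26 ± 0.804), and ATF5 with ATF3 (3.00 ± 0.562). CHAC1 was lowest at 1.04 ± 0.290 and did not overlap with ATF3. In OXA, ATF4 stood at 113.3 ± 5.03, PSAT1 at 61.4 ± 7.18 and ASNS at 14.4 ± 2.34. PPP1R15A rose in rank from 6 to 4 (13.3 ± 1.20) and PHGDH went from 4 to 6 (8.91 ± 0.932). ATF3 went from rank 9 to 7 (6.09 ± 0.706), next to DDIT3 (5.75 ± 0.929) and ATF5 (5.13 ± 0.477). The length of each gene joins the exons of all its annotated isoforms, so levels per length can be low estimates. The order of the genes depends on this choice of length. PHGDH had the longest, at 9187 bases from many isoforms, so its level per length is a low estimate.

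The wider pathway was read from 7 lists of 82 genes in all, of which 79 were tested. Of these 79 genes, 5 were higher and 3 lower in OXA by edgeR, against 2.78% and 2.29% of all genes, and their median log2 fold change was -0.019, against 0.023. With the block 16 were higher and 12 lower, against 12.1% and 10.9%.

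**Figure D4:**
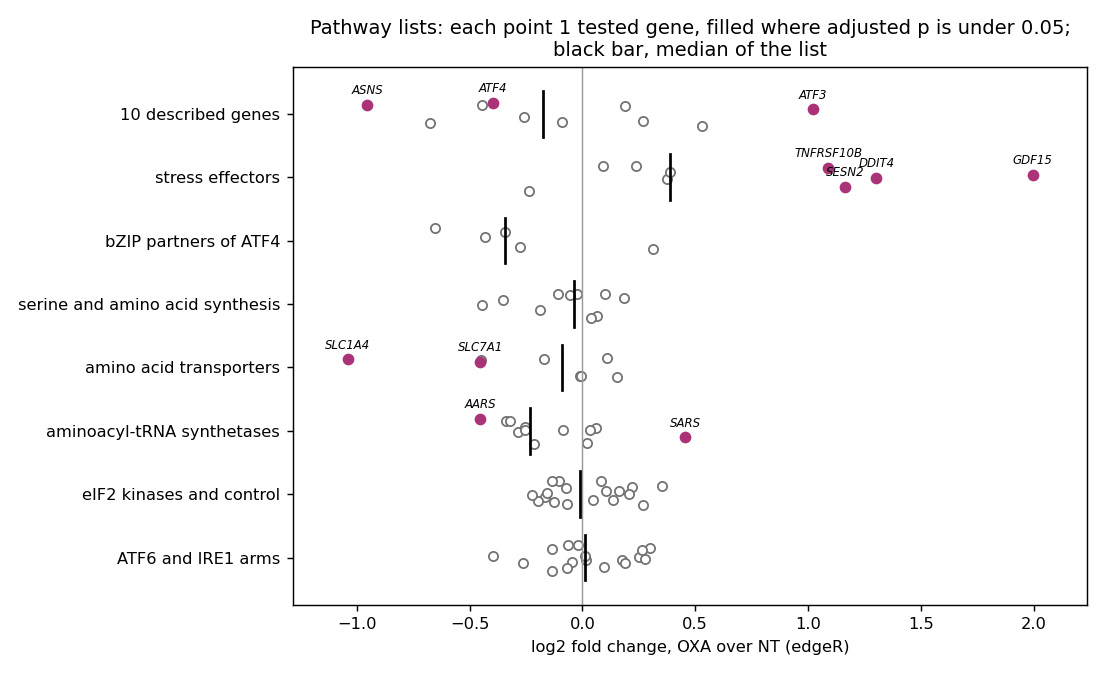
Log2 fold change of OXA over NT (horizontal axis) for each tested gene of the 7 pathway lists and of the 10 genes, 1 point per gene, with genes called by edgeR filled and the median of each list as a bar. The stress effectors GDF15, DDIT4, SESN2 and TNFRSF10B lie furthest to the right, and the transporter SLC1A4 furthest to the left.

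Upstream of ATF4, 18 genes were read: the eIF2α kinases, their regulators, the phosphatase subunit PPP1R15B, and the eIF2 and eIF2B subunits. None was called by edgeR, DESeq2 or limma-voom, and their median log2 fold change was -0.0096. At an unadjusted p under 0.05 there were 2 of the 18, against 21.7% of all genes tested. With the block 4 were called higher, all by less than 1.5-fold, and none lower, against 12.1% and 10.9% of all genes. These were EIF2AK4, which encodes the amino acid sensing kinase GCN2 (log2 fold change 0.22, edgeR adjusted p = 0.0263), and the subunits EIF2B1, EIF2B2 and EIF2B4 of the exchange factor for eIF2 (0.21, 0.27 and 0.35). The list of ATF4 partners held 6 genes, the bZIP genes CEBPA, CEBPB, CEBPD, CEBPG and JDP2 and also NUPR1. The 5 bZIP genes were tested and none was called by any of these tools, with a median log2 fold change of -0.35. Of these 5, 2 had an unadjusted p under 0.05, against 21.7% of all genes tested. With the block 2 were lower and none higher, against 10.9% and 12.1% of all genes. CEBPG, which pairs with ATF4 on its sites, went from 2445 ± 204 to 1925 ± 97.0 normalized counts (SD, n = 3) and was called lower with the block alone (edgeR adjusted p = 0.0274, against 0.0871 without it). JDP2, a repressor of the same family, was also called lower with the block (log2 fold change -0.62, edgeR adjusted p = 0.0378), though its groups overlapped. NUPR1 had 0 to 9 raw counts per library and was not tested.

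Amino acid supply beyond ASNS, PHGDH and PSAT1 was read from 10 other enzymes and 8 transporters. None of the 10 enzymes of serine, one-carbon, proline, alanine, aspartate and cysteine synthesis was called by edgeR, DESeq2 or limma-voom. Their median log2 fold change was -0.039. At an unadjusted p under 0.05 there was 1 of the 10, against 21.7% of all genes tested. With the block GOT1 was called higher (log2 fold change 0.19, edgeR adjusted p = 0.0457) and GPT2 lower (-0.34, 0.0284). By the same fit 12.1% of all genes were higher and 10.9% lower. Of the 8 transporters 2 were lower and none higher, by all 3 tools and also at an unadjusted p under 0.05, with a median of -0.092. Over all genes tested, 2.29% were lower and 2.78% higher by edgeR, and 21.7% had an unadjusted p under 0.05. SLC1A4, a carrier of alanine, serine, cysteine and threonine, had 465, 504 and 558 normalized counts in NT and 236, 225 and 281 in OXA. It fell 2.06-fold (a log2 difference of -1.04 ± 0.15 SE, edgeR adjusted p = 0.0107), a call that held in 3 of the 6 fits that left out 1 library. For SLC1A4 the edgeR adjusted p was 0.00315 without NT library 1, and it missed the threshold without NT library 3 (0.0501), OXA library 1 (0.0755) or OXA library 2 (0.0645). SLC7A1, a carrier of arginine and lysine, was also lower, with 6049.6 ± 594 normalized counts in NT and 4418 ± 92.0 after oxaliplatin (log2 fold change -0.45, edgeR adjusted p = 0.0395), and its call held in 1 of those 6 fits, the one without NT library 1. SLC7A11, the cystine carrier, varied widely within the groups, from 1939 to 3984 in NT and from 1293 to 3496 in OXA, and was called lower with the block (log2 fold change -0.54, edgeR adjusted p = 0.0330; 0.591 without it).

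Aminoacyl-tRNA synthetases charge tRNAs with amino acids, and ATF4 activates many of them. Of 12 such genes, 1 was higher and 1 lower by edgeR and limma-voom, and 1 higher and 2 lower by DESeq2. Their median log2 fold change was -0.23. Over all genes tested, 2.78% were higher and 2.29% lower by edgeR. SARS, the serine enzyme, rose from 5860.1 ± 180 to 8033 ± 529 normalized counts (SD, n = 3; log2 fold change 0.46, edgeR adjusted p = 0.0274). AARS, the alanine enzyme, fell from 12447 ± 374 to 9087 ± 426 (log2 fold change -0.45, edgeR adjusted p = 0.0236). In neither gene did the groups overlap, and each call held in 1 of the 6 fits that left out 1 library, the one without NT library 1. With the block LARS, MARS and TARS were called lower as well, which made 4 of the 12 lower, against 10.9% of all genes. MARS, the methionine enzyme, was the gene that DESeq2 added (DESeq2 adjusted p = 0.0360, against 0.0632 by edgeR without the block). SARS and AARS thus moved in opposite directions within 1 list.

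The stress effectors were the list with the most calls. Since the lists were chosen with earlier results of these data known, their share of calls is a description and not a test. Of 11 genes 9 were tested, and 4 were higher and none lower by all 3 tools, against 2.78% and 2.29% of all genes by edgeR. At an unadjusted p under 0.05 there were 5 higher and 1 lower, against 21.7% of all genes in either direction. The median log2 fold change was 0.39. GDF15, a secreted stress cytokine, had 496, 1017 and 1280 normalized counts in NT and 3019.8, 4254 and 3871 in OXA (a log2 difference of 2.00 ± 0.32 SE, edgeR adjusted p = 0.0169). DDIT4, an inhibitor of mTORC1, went from 1473 ± 473 to 3630.5 ± 495 (log2 fold change 1.302, edgeR adjusted p = 0.0202), and SESN2, another mTORC1 inhibitor, from 556 ± 164 to 1245 ± 120 (1.16, 0.0264). TNFRSF10B, which encodes the death receptor DR5, rose from 4381 ± 354 to 9318 ± 470 (a log2 difference of 1.09 ± 0.094 SE, edgeR adjusted p = 0.00241). Its call held in 6 of the 6 fits that left out 1 library, and those of GDF15, DDIT4 and SESN2 in 2 of 6. Without NT library 1 all 3 kept their calls (edgeR adjusted p = 0.000743 for GDF15, 0.0110 for DDIT4 and 0.00348 for SESN2). The other call kept was that without NT library 3 for GDF15 and SESN2 and without NT library 2 for DDIT4, and leaving out any OXA library gave values from 0.0606 to 0.112. With the block 7 of the list were higher and 1 lower, against 12.1% and 10.9% of all genes. The added genes were VEGFA, STC2 and SQSTM1 (log2 fold change 0.24, 0.38 and 0.43, edgeR adjusted p = 0.0466, 0.0223 and 0.0379), and HERPUD1, which acts in the disposal of misfolded proteins of the endoplasmic reticulum, was the lower one (log2 fold change -0.235, 0.0389). GDF15, DDIT4, SESN2 and TNFRSF10B are also known as p53 targets, as is ATF3, and CDKN1A moved with them. Whether ATF4, CHOP or p53 stood behind their levels was not tested. FGF21 and VLDLR had at most 3 raw counts in any library and were not tested.

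The ATF6 and IRE1 arms of the unfolded protein response, which answer to misfolded protein without eIF2α, were read from 17 genes. None was called by edgeR, DESeq2 or limma-voom, and their median log2 fold change was 0.011. At an unadjusted p under 0.05 there were 4 of the 17, against 21.7% of all genes tested. With the block the chaperones HSPA5 and CALR and the sensor ERN1 were called higher, against 12.1% of all genes. XBP1, the factor that IRE1 splices, was called lower with the block (log2 fold change -0.40, edgeR adjusted p = 0.00946, against 0.0839 without it), as were 10.9% of all genes. XBP1 went from 2475 ± 214 to 1879 ± 174 normalized counts (SD, n = 3), and the count does not separate its spliced from its unspliced mRNA.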

How the data were processed

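Poly(A)-selected, stranded RNA libraries of 3 NT and 3 OXA samples of HCT116 cells were sequenced. The submitters' processing notes name Trimmomatic 0.32, STAR 2.7.5b, RSEM 1.3.3 and DESeq2 2.13 on GRCh38. The gene annotation and the strand setting of the counting are not given in the sources used here. The authors deposited, in 1 table, raw counts per gene, which are whole numbers and may be rounded RSEM estimates, and their own normalized values, a signal whose ratio to the raw count differs between genes of a library. The normalized signal was used for 1 alternative alone, as log2 of the value plus 1 with limma.

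Groups and replicate numbers came from the labels, and each library had its own columns (0 per-sample columns were left out). Raw counts were filtered with filterByExpr (minimum count 10, minimum total 15), scaled by TMM and tested across all 13727 genes with edgeR 4.0.16's quasi-likelihood test in R 4.3.3, with Benjamini-Hochberg adjustment, a threshold of 0.05 and, for size, 1.5-fold. The test is 2-sided, and the standard error is the size of the log2 fold change over the root of F. The counting error of a gene follows from its own count and not from the library total alone. TMM factors lay between 0.9726 and 1.018. Same-numbered NT and OXA libraries had deviations from their group means that correlated across genes (r = 0.55, 0.54 and 0.31, each above the limit of 0.1), while differently numbered ones ranged from -0.47 to 0.09. The labels do not say what the number stands for. A fit with the number as a block is therefore given beside the calls it changed among the 10 genes, the pathway lists and the epithelial markers. DESeq2 1.42.0 and limma 3.58.1 served as alternatives, as did other scalings, no filter and leaving out each library. Removing a trend over exon GC was chosen after the data had been seen.

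The 10 genes, the lists and the markers were chosen with earlier results of these data known. The 7 pathway lists hold eIF2 kinases and control, bZIP partners of ATF4 together with NUPR1, enzymes of amino acid synthesis, amino acid transporters, aminoacyl-tRNA synthetases, stress effectors, and the ATF6 and IRE1 arms. All 10 genes are named, and of each list the called genes, at most 6, by smallest p. The 5 genes most like ATF4 and CDKN1A are named too. Genes called with the block alone, and uncalled genes given with values, were picked after their values were seen. Positions, lengths and GC came from GENCODE release 44 on GRCh38, and promoters from RefSeq. The fits were also run on simulated data with known changes, whose outcome is not given here and on which no result rests.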

Additional observations from a re-analysis of the deposited data

How the results depend on the processing

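The counts of calls over all genes moved most with the replicate block, the GC step and the library left out. They moved less with the choice of 1 scaling factor per library. The main fit called 1 of the 10 genes higher and 2 lower, 381 and 315 of all genes and 5 and 3 of the pathway genes. Past 1.5-fold it called 1 of the 10 higher and 1 lower. The second number, the genes of the 10 lower past 1.5-fold, was 2 with DESeq2 size factors, with library totals, with no filter on low counts, with the DESeq2 test, with the authors' values, with the block and with the GC trend removed, PHGDH being the added gene. Library totals gave 350 genes higher and 511 lower, a different split from the main 381 and 315. DESeq2 called 608 genes higher and 567 lower, and 2 of the 10 genes higher. The authors' normalized values gave 236 and 187, with 0 of the 10 genes higher, also past 1.5-fold, where ATF3 missed the threshold (limma adjusted p = 0.0904) and ATF4 did too (0.0605). By edgeR in the main fit, 5 of the 10 had an unadjusted p under 0.05, as did 21.7% of all genes tested. limma-voom gave 375 and 289 and the same counts for the 10 genes.

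The replicate block gave 1664 genes higher and 1493 lower, 16 and 12 pathway genes, and 2 of the 10 higher. With the GC trend removed there were 1575 and 1494 genes, and 10 and 13 pathway genes. The block and the GC step together gave 3259 and 3001 genes, 20 and 23 pathway genes, 2 of the 10 higher and 5 lower, and 3 lower past 1.5-fold. The block changed the calls of PPP1R15A and PHGDH and of no other of the 10. Leaving out 1 library gave 0 to 2 of the 10 higher and 0 to 3 lower, 0 to 1 and 0 to 2 past 1.5-fold, 66 to 623 and 19 to 571 genes, and 1 to 6 and 0 to 6 pathway genes. The counts of all genes were lowest without OXA library 1 and highest without NT library 1, and the cause was not tested. Over the 10 genes and these alternatives, no estimate changed sign in a called gene, 122 values kept their side of the threshold, 15 passed it and 13 missed it. Counting error was widest for CHAC1, the least counted of the 10.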

Other observations

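The 5 genes whose levels followed ATF4 most closely over the 6 libraries were not in the lists. The lists held 82 genes, so their absence from the top 5 of 12065 says little about them. Over 12065 genes with a mean of at least 50 normalized counts, the highest Pearson r with the scaled log2 level of ATF4 were those of HELLS (0.996), KNL1, FAR2 and HMGB2 (0.995 each) and SH3D19 (0.994). HELLS is a chromatin remodeller, KNL1 a kinetochore protein and HMGB2 a chromatin protein, all 3 known for their use in dividing cells. Their log2 fold changes were -0.80, -0.58 and -0.34. FAR2 and SH3D19 had -0.30 and -0.65. All 5 were picked by their r with ATF4, which was lower in OXA, so lower levels in OXA follow from the choice. ASNS had an r of 0.978 with ATF4. The 6 points share the split into NT and OXA and the same libraries, so these values describe the order of the libraries and carry no p.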
